A study of Mus musculus with 23 samples.

Results

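The late step of Argonaute loss was followed in mouse embryonic stem (ES) cells by comparing cells kept without doxycycline for 96 h with cells kept without it for 48 h, across all genes. The 4 libraries of these groups (n = 2 each) were chosen by their labels out of 23 samples in the series. All 4 came from TT-FHAgo2 cells, a clonal line that is Blm-/- and Ago1,2,3,4-/- and carries CreERT2 together with TT-FHAgo2, an Ago2 transgene switched on by doxycycline. It thus lacks the 4 endogenous Argonautes and the helicase Blm. The line was propagated at 0.1 µg/mL doxycycline, held for 48 h at 2.5 µg/mL, where Ago2 protein reaches its amount in wild-type cells by the labels' protocols, and then left without the drug for 96 h or 48 h. Cells grew on gelatin in medium with serum and the cytokine LIF, and polyadenylated RNA was read by strand-specific mRNA-seq. By the labels the 96 h cells were also 48 h longer in culture than the 48 h cells, so that time in culture and time without doxycycline cannot be told apart. The labels do not say that the libraries of a group were separate cultures, and p-values measure the spread between libraries of 1 line. The deposited tables hold the mean of each group in size-factor-normalised reads, from which the whole reads of each library were recovered; libraries are numbered here by depth, library 1 being the deeper. Other libraries served to set the late step beside changes elsewhere: 24 h and 0 h without doxycycline (n = 2 each), 2.5 µg/mL given back for 48 h after 96 h without it against none given back (n = 2 each), and the Argonaute-free clones C62 and C86 (n = 2) against the line E7, whose sole Argonaute is the human transgene hAgo2fl (n = 3). Clones and E7, like TT-FHAgo2 cells, lack Blm and the 4 endogenous Argonautes and carry CreERT2.

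Argonaute proteins carry microRNAs to partly complementary sites, mostly in the 3′ untranslated regions (UTRs) of messenger RNAs, and recruit Tnrc6 scaffolds that bring about deadenylation, decay and block of translation. In mouse ES cells the most abundant microRNAs are those of the miR-290 and miR-302 clusters, many of which share 1 seed, the stretch near the 5′ end that pairs with targets. The let-7 family is kept low in these cells by Lin28 proteins. The mature sequences below, from RefSeq (GRCm38.p6), are shown because the target sites described further on pair with their seeds. Capitals mark the seed, bases 2 to 8 counted from the 5′ end. The first 3 lie on the plus strand of chromosome 7, at chr7:3218968-3218989, chr7:3220691-3220712 and chr7:3220815-3220837, the fourth on the plus strand at chr3:127545275-127545297, and the last on the minus strand at chr13:48538239-48538260.
mmu-miR-291a-3p: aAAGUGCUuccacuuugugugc
mmu-miR-294-3p: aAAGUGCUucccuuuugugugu
mmu-miR-295-3p: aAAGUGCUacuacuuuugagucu
mmu-miR-302b-3p: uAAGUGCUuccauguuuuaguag
mmu-let-7a-5p: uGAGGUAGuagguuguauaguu
The first 4 share their seed, and that of let-7a differs from it. An mRNA site that pairs with the shared seed reads AGCACTT, and the 8-base form used below, AGCACTTA, adds an A at the site's 3′ end.

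Exon reads numbered 48.7 and 47.0 M in the 96 h libraries and 62.4 and 58.0 M in the 48 h libraries, and intron reads 6.28 and 6.01 M at 96 h and 8.38 and 8.16 M at 48 h. Libraries of a group differed from each other by a median of 0.0955 (96 h) and 0.0733 (48 h) on the log2 scale over 13652 tested genes. The targeted genes were read first. Ago1 had 0 reads in every library of the time course. Ago2 had 10771 and 10817 normalised exon reads at 96 h and 11016 and 11550 at 48 h (log2 change -0.06, not called, adjusted p = 0.252), a count that does not tell the transgene from what remains of the endogenous gene, so the loss of Ago2 protein cannot be read from it. Ago3 had 2245 and 2118 reads at 96 h and 2315 and 2316 at 48 h, and Blm 4696 and 4854 at 96 h and 4936 and 4741 at 48 h. Reads over a whole gene do not show whether part of it is deleted, so these levels do not check the genotype. Ago3, Ago4 and Blm were not called, at adjusted p = 0.26, 0.526 and 0.814. Markers of ES cells were abundant in all 4 libraries: Pou5f1 had 67811 and 66978 reads at 96 h and 65078 and 63833 at 48 h, and Sox2, Zfp42, Esrrb and Dppa5a, like Pou5f1, were not called. The other 3 of these 8 markers were called higher by little: Tdgf1 (log2 change 0.33), Utf1 (0.29) and Nanog (0.11), the last a call lost without the trend and without either 48 h library.

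Between 48 h and 96 h 36.4% of the tested genes moved, mostly by little. The test was limma on log2 of each library's normalised reads plus a pseudocount of 1, and a gene was called at an adjusted p below 0.05 over all 13652 genes with a mean of at least 10 reads. Of these, 4973 were called (36.4%), 2747 higher at 96 h (20.1%) and 2226 lower (16.3%), with a median absolute change of 0.35 among those called. Changes of 2-fold or more were fewer and leaned downward, with 212 genes higher (1.55%) and 476 lower (3.49%), and 20 rose and 74 fell by at least 4-fold. The median change of all genes was 0.02. Before adjustment 6168 genes stood below 0.05. Without library 1 of the 48 h group 3282 genes were called, and without library 2 of that group 3376.

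**Figure D1:**
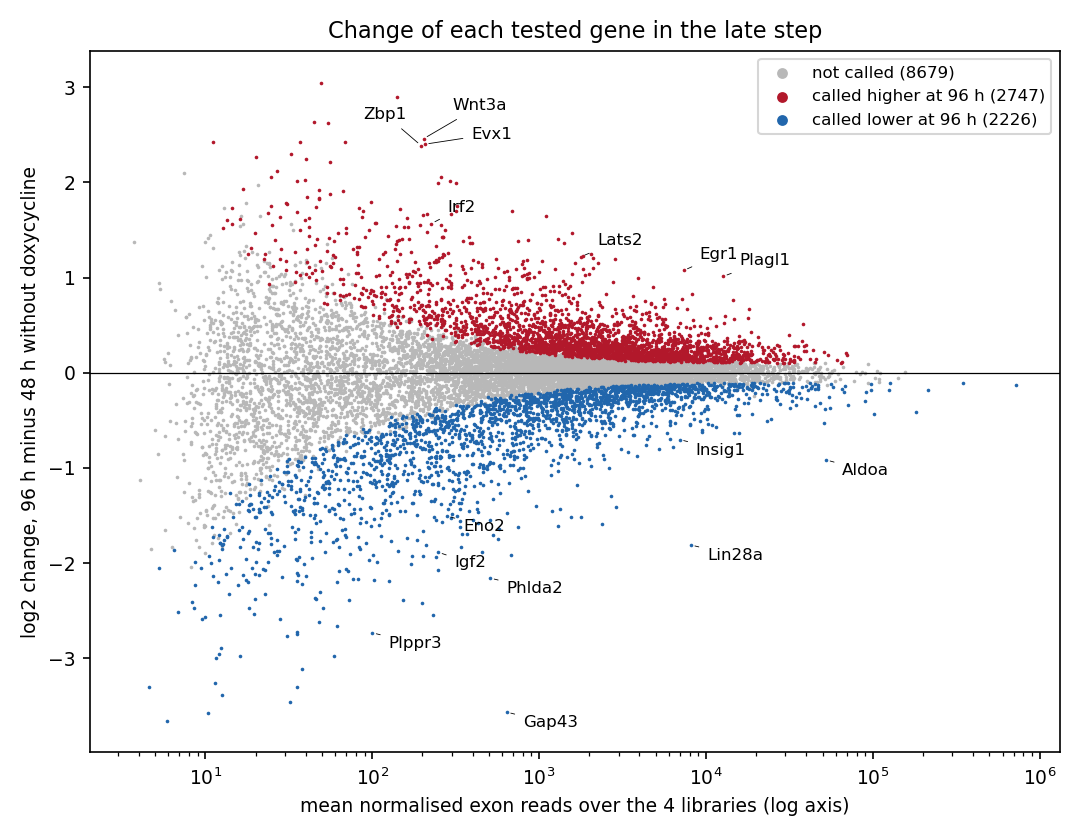
Log2 change of exon reads at 96 h against 48 h without doxycycline (vertical axis) for each tested gene, by its mean normalised reads over the 4 libraries (horizontal log axis). The 2747 genes called higher are red, the 2226 called lower blue and the others grey; the widest changes lie among genes of under 1000 reads, and Lin28a and Aldoa are abundant genes far below 0.

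The largest rises named here, among genes with a mean of at least 50 reads, lay between 1.91 and 2.63 on the log2 scale. Wnt3a (chromosome 11, 59248033 to 59290752, mm10), a Wnt ligand of the primitive streak, had 327 and 361 reads at 96 h, against 54.9 and 69.3 at 48 h (log2 change 2.46 with an SE of 0.23, adjusted p = 2.15e-08). Evx1 (chromosome 6, 52313498 to 52318378), a homeobox gene of the streak, had 370 and 325 reads at 96 h, against 57.9 and 72.5 at 48 h (log2 change 2.40 with an SE of 0.29, adjusted p = 8.23e-07). In both the 96 h libraries lay above every other library of the time course, including those at 0 h, where Wnt3a had 72.5 and 67.8 reads. Zbp1 (chromosome 2, 173206612 to 173218923), a sensor of Z-form nucleic acid, had 323 and 337 reads at 96 h, against 61.7 and 62.9 at 48 h (log2 change 2.39 with an SE of 0.29, adjusted p = 9.07e-07). Unlike Wnt3a and Evx1 it had also risen on the first day, with 37.2 and 55.3 reads at 24 h, against 11.6 and 9.85 at 0 h. Others among the 12 largest rises were the adhesion receptor Adgrg3 (log2 change 2.63), the lymphocyte adaptor Sash3 (2.42), the scramblase gene Plscr2 (2.21), the matrix proteins Thbs1 (2.05) and Loxl4 (2.02), the interferon-inducible GTPase Irgm1 (2.00), the coactivator Cited4 (1.99) and the interferon-inducible Stat partner Nmi (1.91). Among the rises named here the call of Plscr2 alone was lost in an alternative: with 34.6 and 9.67 reads its 48 h libraries were far apart, and it was lost without library 2 of that group and without the variance trend.

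The 12 deepest falls among genes with a mean of at least 50 reads lay between -3.57 and -2.18 on the log2 scale. Gap43 (ENSMUSG00000047261, chromosome 16, 42248442 to 42340651), a protein of nerve growth cones, had 96.2 and 101.7 reads at 96 h, against 1207 and 1157 at 48 h, an 11.8-fold fall (log2 change -3.57 with an SE of 0.09, adjusted p = 2.3e-18). It had been higher at 24 h, with 1675 and 1609 reads, than at 0 h, with 922 and 916. Pou2f2 (chromosome 7, 25087344 to 25179726), the octamer-binding factor Oct2, had 69.0 and 64.4 reads at 96 h, against 357 and 432 at 48 h (log2 change -2.54 with an SE of 0.17, adjusted p = 7.39e-11). The tetraspanin gene Tspan7 (X chromosome, 10485158 to 10596605) had 64.1 and 59.4 reads at 96 h, against 366 and 307 at 48 h (-2.42, SE 0.16, adjusted p = 1.04e-10). In both, values at 0 and 24 h lay near those at 48 h, and neither was called on the first day. Usp51, a deubiquitinase gene, followed another course: it had 24.3 and 10.1 reads at 96 h, against 99.3 and 111 at 48 h (-2.67, SE 0.29, adjusted p = 2.07e-07), and 248 and 189 at 0 h. The remaining falls were in the acyl-CoA thioesterase Acot3 (log2 change -2.98), the neuronal membrane protein Plppr3 (-2.73), the guidance molecule Sema5a (-2.47), the phosphatase subunit Ppp1r16b (-2.39), the matrix genes Fbln2 (-2.38) and Emilin3 (-2.18), the sushi-domain gene Susd5 (-2.20) and the synaptic scaffold Caskin1 (-2.18). Caskin1 overlaps Traf7, and Plppr3 overlaps Ptbp1 and Prtn3, so some of their reads may be shared. All 12 kept their call in every alternative.

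**Figure D2:**
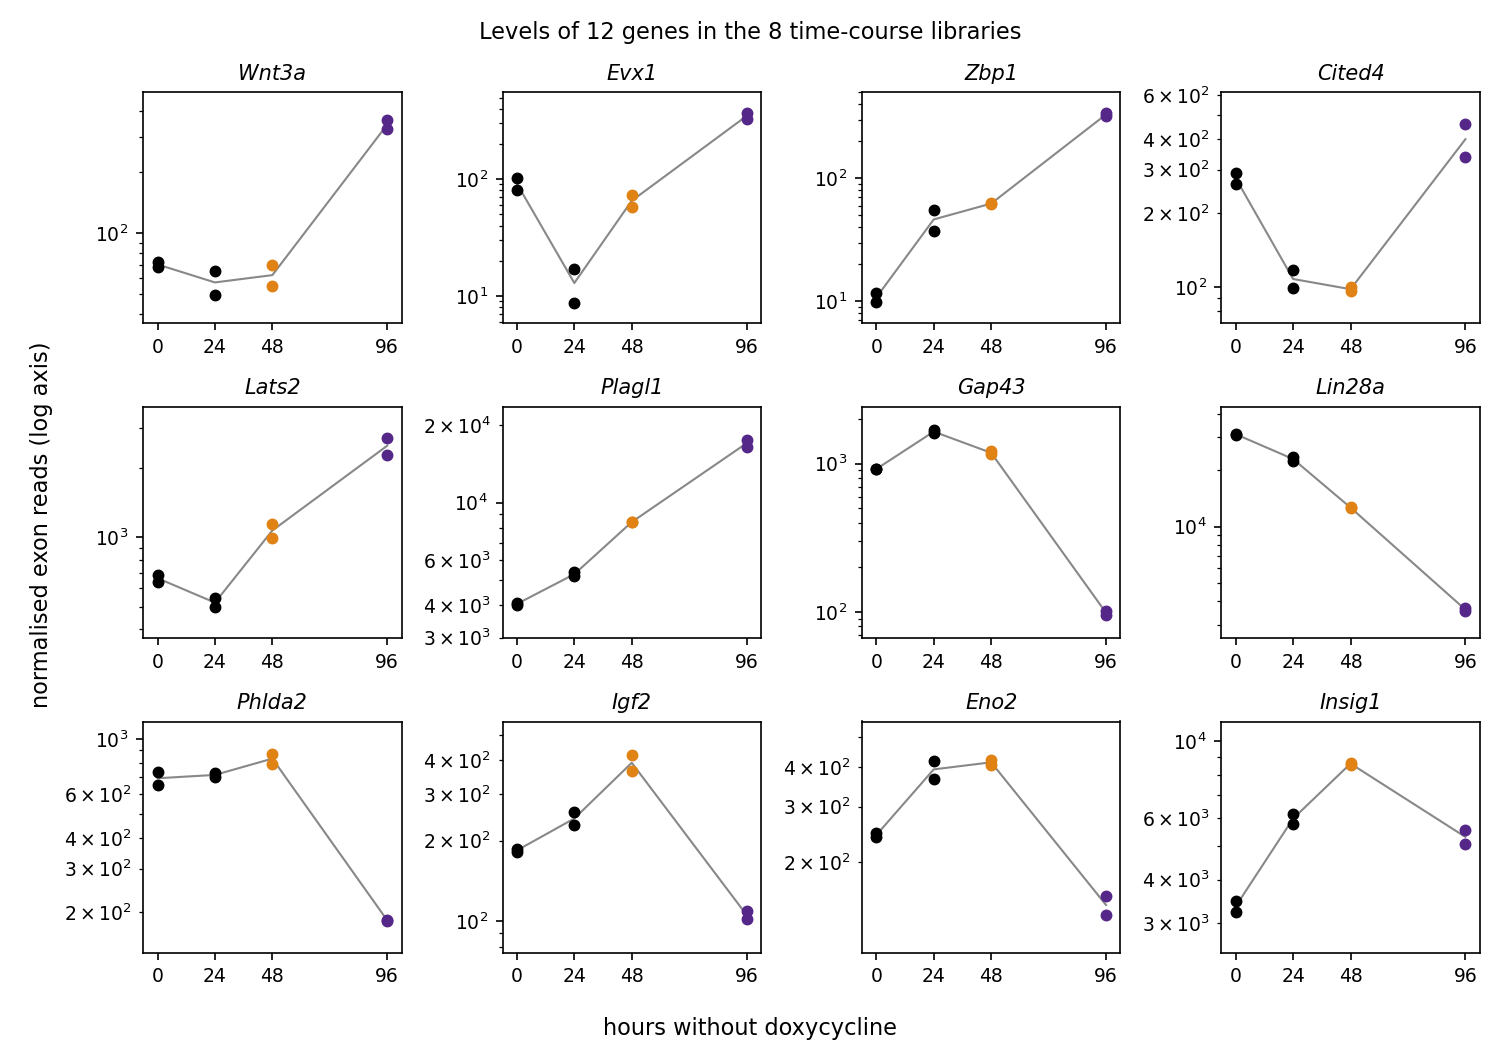
Normalised exon reads (log axes, a scale for each gene) of 12 genes at 0, 24, 48 and 96 h without doxycycline; points are the 2 libraries of each time, orange at 48 h and purple at 96 h, and lines join the means. Wnt3a, Evx1 and Cited4 lie higher at 96 h than at any earlier time, Gap43, Phlda2, Igf2 and Eno2 lie lower than at any earlier time, Lin28a falls at every step, and Insig1 at 96 h lies between its levels at 0 h and 48 h.

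Gene lists chosen for ES cells and for microRNA biology were then counted, 45 in all, each to be read against 20.1% higher and 16.3% lower among all tested genes. Known targets of the ES-cell microRNAs moved upward: 10 of 19 tested were higher, none was lower, and the median change was 0.19. Lats2 (chromosome 14, 57689662 to 57758388), a Hippo pathway kinase, had 2718 and 2290 reads at 96 h, against 1149 and 995 at 48 h (log2 change 1.22 with an SE of 0.09, adjusted p = 8.09e-10). The orphan receptor gene Nr2f2 had 473 and 432 reads at 96 h, against 157 and 127 at 48 h (log2 change 1.67 with an SE of 0.25, adjusted p = 1.14e-05). Both had been lower at 24 h than at 0 h, where Nr2f2 had 64.7 and 62.4 reads. Their 48 h values lay above the earlier ones. In the list as a whole 13 of 19 had been higher on the first day and 2 lower (median 0.62). Among all genes 26.5% were higher on that day and 24.1% lower. Set against the first day, 9 of the 19 were called more negative in the late step and 3 more positive. The shares of all genes were 25.6% and 25.7%. The receptor gene Tgfbr2 had 529 and 499 reads at 96 h, against 326 and 289 at 48 h (0.74, SE 0.15, adjusted p = 0.000451). The pocket protein gene Rbl2 (0.44), the methyl-CpG binder Mbd2 (0.43), the antiproliferative gene Btg2 (0.39), the cell-cycle inhibitor Cdkn1a (0.30), Ei24 (0.25) and the GTPase gene Rhoc (0.19) were also called higher, Rhoc not when any 1 of the 4 libraries was left out. Lefty1 and Lefty2, the feedback inhibitors of Nodal, did not take part: Lefty1 had 27694 and 27683 reads at 96 h and 29492 and 29770 at 48 h (-0.10, adjusted p = 0.0588), and Lefty2 changed by 0.01. With voom weights Lefty1 and Tob2 were called lower, and without library 2 of the 96 h group Btg1 was.

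Sites for the shared seed are shown for 5 members of this list that rose and hold the 8-base form (Mbd2, which rose and holds 1 too, is not shown), read from the 3′ UTRs of GENCODE vM21 (GRCm38); capitals mark AGCACTTA. They lie at chr14:57691085-57691110 (minus strand, Lats2), chr8:46846647-46846672 (plus, Irf2), chr9:116087770-116087795 (minus, Tgfbr2), chr8:91123813-91123838 (plus, Rbl2) and chr17:29100483-29100508 (plus, Cdkn1a).
Lats2: tagtacagtatggaaagAGCACTTAt
Irf2: tctgcaccttatcttgaAGCACTTAc
Tgfbr2: tttatatcaaaacctaaAGCACTTAt
Rbl2: tgtgtatttttcaataaAGCACTTAt
Cdkn1a: aataccgtgggtgtcaaAGCACTTAg
Nr2f2 and Btg2, which rose, held no 7-base match in the annotated 3′ UTR. Lefty1, Lefty2 and Btg1, which were not called in the main fit, held an 8-base match each. A match is a stretch of letters and not a measured site.

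Across all genes the same seed match went with a small upward shift in exon reads. Of 460 tested genes with an 8-base match in the 3′ UTR, 28.3% were higher and 12.8% lower (median change 0.07), whereas of 11073 genes with no 7-base match 19.6% were higher and 16.7% lower (median 0.02). Among 499 genes with the 8-base match of let-7 these shares were 20.6% and 19% (median 0.01). Introns of genes with the 8-base ES-cell match were called higher in 10.7% and lower in 6.99%, and introns of genes without a match in 9.31% and 8%. On the first day 37.6% of the 8-base genes were higher in exons and 24.2% lower in introns, against 25.5% and 17.7% of genes with no match. With 2.5 µg/mL given back 55.4% of the 8-base genes were lower and 15.3% higher, against 28.7% and 34.1%. Genes with the 8-base match had longer 3′ UTRs (median 2852 bases) than genes without a match (945 bases), and the part of UTR length in these shares was not tested.

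**Figure D3:**
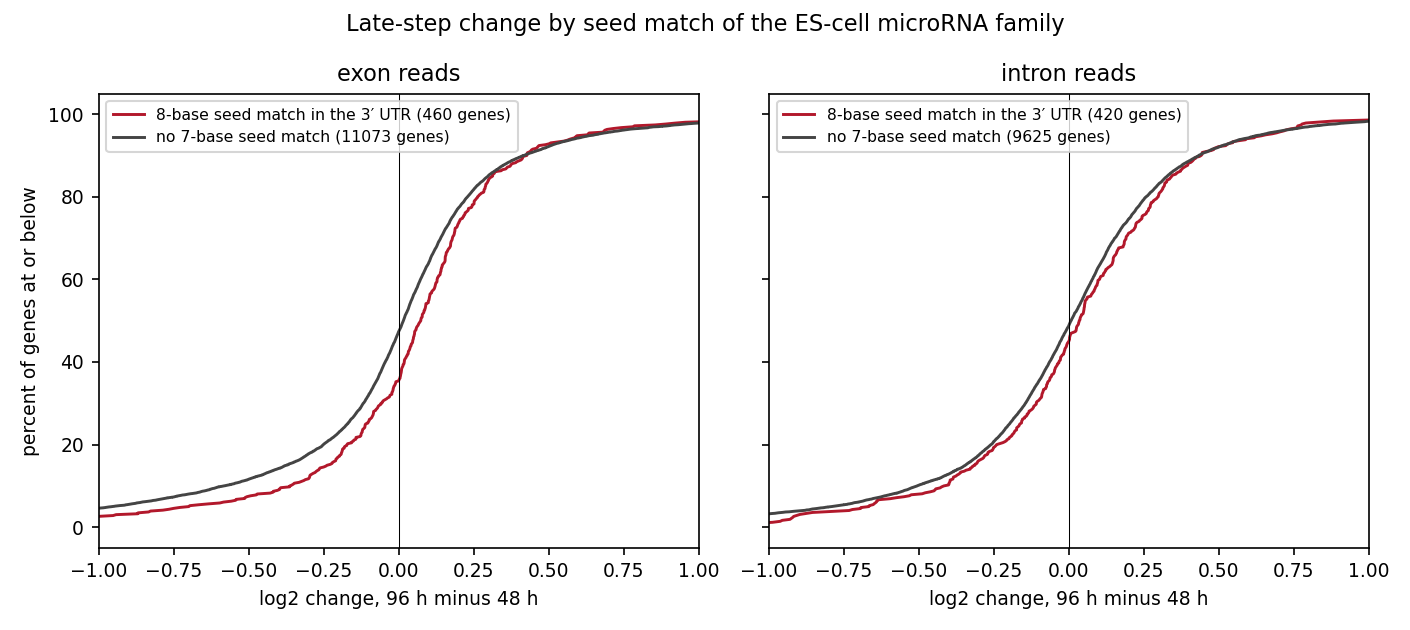
Cumulative percent of genes (vertical axis) by log2 change at 96 h against 48 h (horizontal axis, shown from -1 to 1) for genes with an 8-base match to the shared ES-cell microRNA seed (red) and with no 7-base match (dark grey), in exon reads (left) and intron reads (right). In exons 35.4% of the genes with a match and 47.3% of those without lie at or below 0; in introns 44.8% and 48.8% do.

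The let-7 axis split. Lin28a (chromosome 4, 134003330 to 134018841), which blocks let-7 maturation, had 3541 and 3676 reads at 96 h, against 12723 and 12573 at 48 h (log2 change -1.81 with an SE of 0.04, adjusted p = 1.64e-19). Its paralog Lin28b had 3898 and 4138 reads at 96 h, against 3193 and 3215 at 48 h (0.33, SE 0.05, adjusted p = 4.87e-05). Libraries of both times were thus apart in both genes, in opposite directions. The let-7 targets Myc (0.76) and Hmga2 (0.54) rose, Fign (-0.95), Arid3a (-0.24) and Peg10 (-0.21) fell, and the list as a whole had 4 of 18 higher and 5 lower. Without library 1 of the 48 h group 3 of it were lower, Fign not among them, and Arid3a lost its call without library 2 of the 48 h group, without library 1 of the 96 h group and without the trend. Of 18 genes of the microRNA machinery, Tnrc6b (0.23), Drosha (0.21), Dgcr8 (0.21) and Tarbp2 (0.19) were higher and Tnrc6c (-0.13), Hsp90aa1 (-0.18) and Prkra (-0.31) lower. Dicer1 was not called (0.06), without library 1 of the 48 h group no gene of the machinery was called lower, and Tarbp2 lost its call without library 1 of either group.

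Among Smad2/3 targets 12 of 27 were higher and 3 lower (median 0.12), or 1 lower without library 1 of the 96 h group. Besides Evx1 the connective tissue growth factor gene Ctgf was higher (0.54). The latent Tgf-beta binding protein Ltbp1 went the other way, with 275 and 334 reads at 96 h, against 765 and 753 at 48 h (-1.32, SE 0.12, adjusted p = 1.24e-08). Of the ligands, Inhbb, the activin B subunit, had 10714 and 10493 reads at 96 h, against 5863 and 6066 at 48 h (0.83, SE 0.05, adjusted p = 1.05e-11), and Nodal (0.36) and Gdf3 (0.39) were also higher. The activin receptor Acvr2b (-0.28) and the co-receptor Tgfbr3 (-0.66) were lower, Tgfbr3 not without library 1 of the 48 h group (adjusted p = 0.0784 with limma). In all 6 of 29 genes of the pathway were higher and 4 lower, close to the shares of all genes. The BMP targets Id3 (0.84) and Smad7 (0.43) were higher and Dlx3 (-1.48) and Hey1 (-0.78) lower, among 4 of 13 higher and 2 lower. Without library 2 of the 48 h group none was lower, and without library 1 of the 96 h group 1 was, neither Dlx3 nor Hey1 keeping its call in these fits.

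Interferon response genes moved upward, 22 of 38 being higher and 3 lower (median 0.38), with 6 of them at least 2-fold higher. After Zbp1 came Oasl2, an oligoadenylate synthetase-like gene, with 113 and 157 reads at 96 h, against 32.4 and 49.97 at 48 h (log2 change 1.70 with an SE of 0.37, adjusted p = 0.000815). The regulator Irf2 (chromosome 8, 46739732 to 46847458), whose 3′ UTR site is shown above, had 316 and 360 reads at 96 h, against 99.3 and 129 at 48 h (1.57, SE 0.32, adjusted p = 0.000418). Ifit1, an RNA-binding effector, had 73.8 and 109 reads at 96 h, against 24.1 and 41.9 at 48 h (1.47, SE 0.46, adjusted p = 0.0159), a call lost without the trend, without library 1 of the 48 h group and without library 2 of the 96 h group. The DNA sensing genes Mb21d1 (0.87) and Tmem173 (0.84), which encode cGAS and STING, and the factors Irf1 (0.38) and Irf9 (0.33) rose too. Against the list, Bst2 had 439 and 430 reads at 96 h, against 756 and 820 at 48 h (-0.86, SE 0.09, adjusted p = 1.7e-07), B2m fell by 0.42 and Stat2 fell by 0.39 on the log2 scale. The oligoadenylate synthetases are close copies whose reads may be split between them.

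Promoters of these genes were searched for the core of the interferon-stimulated response element, a GAAA and a second GAAA with any 2 bases between them. The search covered both strands of the 250 bases before the start. It was found in 5 of 15 risen members with a RefSeq promoter (33.3%), in 4 of 14 other tested members (28.6%) and in 313 of 10537 tested genes with a promoter (2.97%). Of those 4 other members Stat2, Bst2 and B2m were called lower, and the difference between the shares was not tested. Stretches of 150 bases are shown for Ifit1 (GRCm38.p6, chr19:34640739-34640888, plus strand), one of the 5, and for Irgm1 (chr11:48871421-48871570, minus strand), a gene described above that is outside the list counted here, with the matches in capitals; overlapping matches are joined.
Ifit1: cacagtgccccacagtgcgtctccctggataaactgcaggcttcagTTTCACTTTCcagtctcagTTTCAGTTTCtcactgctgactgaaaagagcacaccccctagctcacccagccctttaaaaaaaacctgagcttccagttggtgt
Irgm1: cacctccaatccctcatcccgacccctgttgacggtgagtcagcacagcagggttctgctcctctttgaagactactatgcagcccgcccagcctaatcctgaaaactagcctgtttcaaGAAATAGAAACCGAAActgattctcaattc
A match is a description of letters and says nothing of a factor's binding.

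Genes of the two-cell stage, which rare ES cells switch on, were higher in 10 of 14 and lower in none (median 0.75). Zscan4d had 1034 and 938 reads at 96 h, against 451 and 474 at 48 h (log2 change 1.09 with an SE of 0.12, adjusted p = 1.16e-07), and Zscan4b, Zscan4f and Zscan4c changed by 1.13, 1.04 and 0.74. Tcstv3 had 68.0 and 51.4 reads at 96 h, against 24.1 and 14.5 at 48 h (1.61, SE 0.42, adjusted p = 0.00397), a call lost without library 2 of the 48 h group and without library 1 of the 96 h group. Many members, such as the Zscan4 genes, are near-identical copies. How reads were shared among such copies is uncertain, and they are not separate measurements. Without library 1 of the 48 h group 5 were called and without library 2 of that group 6.

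**Figure D4:**
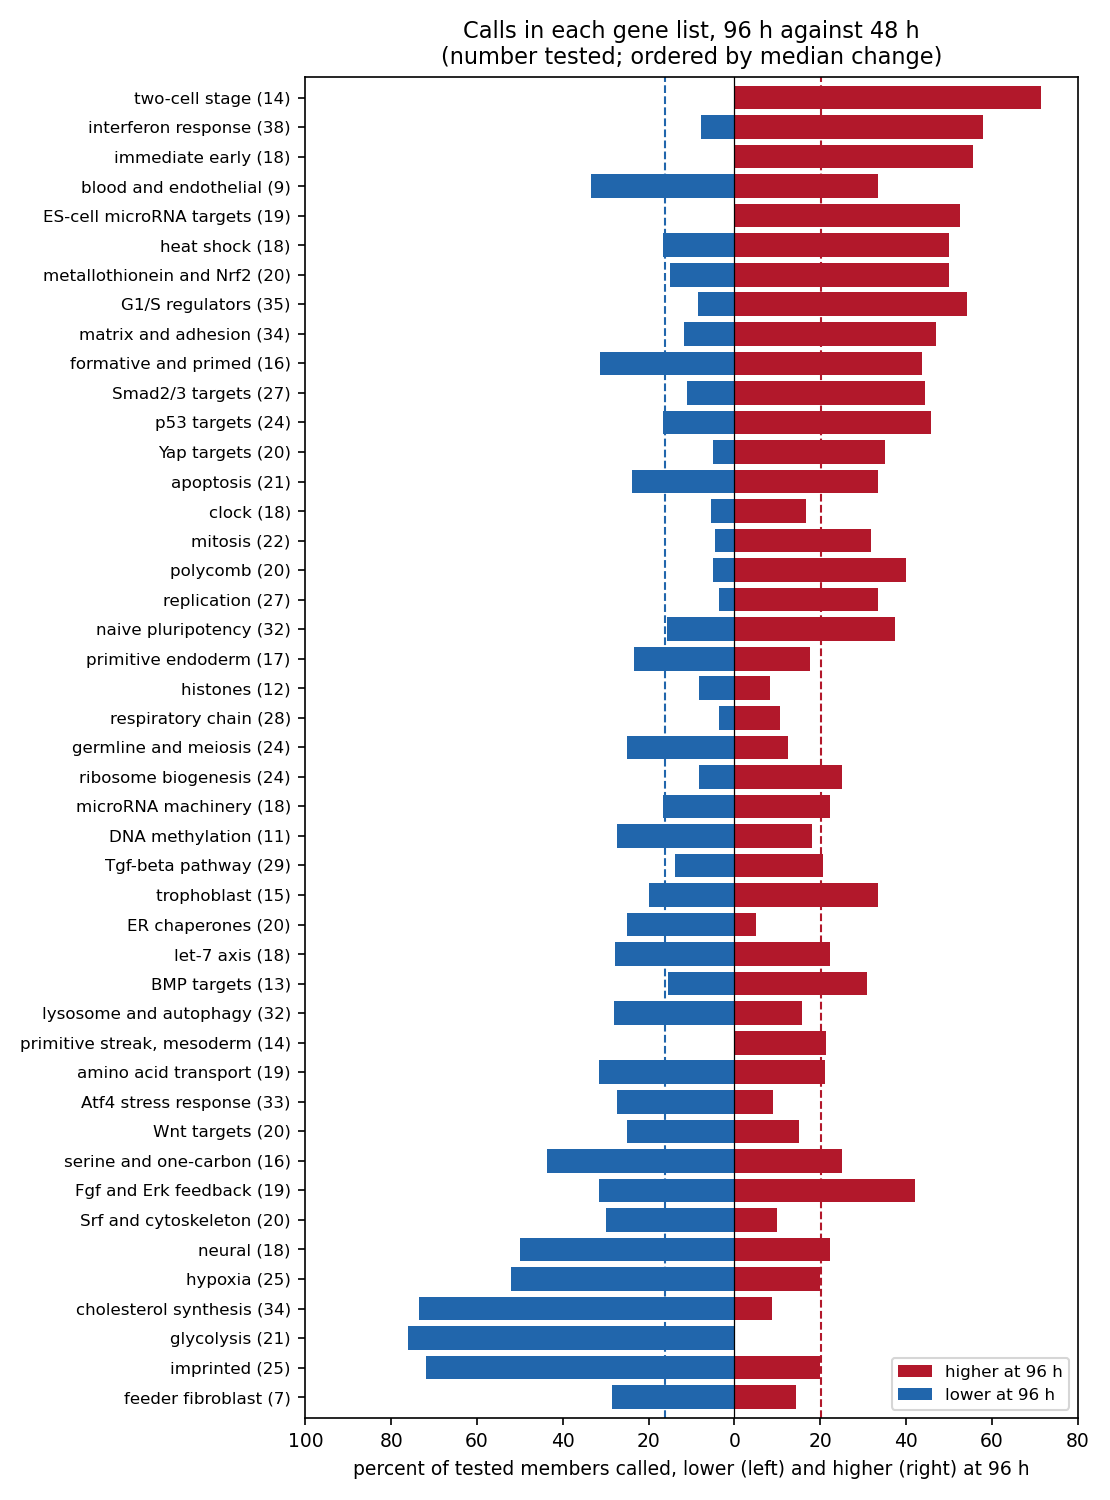
Percent of the tested members of each gene list called higher (red, to the right) and lower (blue, to the left) at 96 h against 48 h, with the number tested, ordered by the median change. Dashed lines mark the shares among all tested genes, 20.1% higher and 16.3% lower; glycolysis, cholesterol synthesis and imprinted genes reach furthest to the left.

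Imprinted genes went the opposite way, with 18 of 25 lower and 5 higher (median -0.38), 7 of them at least 2-fold lower. Phlda2 (chromosome 7, 143501545 to 143503150), a growth restrainer of the placenta, had 186 and 186 reads at 96 h, against 796 and 871 at 48 h (log2 change -2.16 with an SE of 0.11, adjusted p = 5.73e-13). The growth factor gene Igf2 (chromosome 7, 142650766 to 142666816) had 109 and 101.7 reads at 96 h, against 418 and 367 at 48 h (-1.89, SE 0.16, adjusted p = 3.48e-09). Cdkn1c, a cell-cycle inhibitor beside Phlda2 on the same chromosome, had 159 and 176 reads at 96 h, against 438 and 521 at 48 h (-1.51, SE 0.15, adjusted p = 6.47e-08). In these 3 genes both 96 h libraries lay far below both 48 h libraries. Magel2 (-1.78), Nap1l5 (-1.47), Usp29 (-1.15), Ascl2 (-1.14), Dlk1 (-0.95) and Nnat (-0.89) fell as well. Plagl1, a zinc finger gene, was the exception in size: it had 17468 and 16486 reads at 96 h, against 8439 and 8383 at 48 h (1.01, SE 0.04, adjusted p = 1.03e-13). Of the 5 higher members, 2 were called without library 1 of the 48 h group and 2 without library 2 of the 96 h group.

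Glycolysis and sterol synthesis fell as groups. Of 21 glycolytic genes 16 were lower and none higher (median -0.37). Eno2 had 136 and 156 reads at 96 h, against 423 and 407 at 48 h (log2 change -1.50 with an SE of 0.14, adjusted p = 1.91e-08). Aldoa had 32280 and 40859 reads at 96 h, against 67123 and 69928 at 48 h (-0.92, SE 0.06, adjusted p = 1.73e-10), and Pgk1 11072 and 12194 reads, against 18024 and 17950 (-0.63, SE 0.05, adjusted p = 4.09e-10). The enolase, the aldolase and the kinase thus lay lower in both 96 h libraries than in either 48 h library, as did Ldha (-0.53), Pkm (-0.43) and Gapdh (-0.41). Hypoxia-responsive genes had 13 of 25 lower and 5 higher: Car12, a carbonic anhydrase, had 446 and 586 reads at 96 h, against 1136 and 1290 at 48 h (-1.24, SE 0.13, adjusted p = 5.42e-08), while the hypoxia factor Epas1 rose (0.72). The 96 h libraries were not alike in these lists: library 1 had the lower value in 18 of 21 glycolytic, 21 of 25 hypoxia and 27 of 34 sterol genes. Without it 15 glycolytic genes were called lower and 1 higher, 8 hypoxia genes lower and 6 higher, and 22 sterol genes lower and 3 higher; without library 2 of the 48 h group 8 hypoxia genes were lower and 3 higher, and without library 1 of that group 3 were higher. The part of that library in the fall was not tested further.

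Sterol genes had 25 of 34 lower and 3 higher (median -0.31). Insig1 (chromosome 5, 28071363 to 28078662), which holds back the activation of Srebp factors and is itself their target, had 5054 and 5561 reads at 96 h, against 8569 and 8674 at 48 h (log2 change -0.70 with an SE of 0.05, adjusted p = 7.02e-10). The 96 h values of Insig1 still lay above those at 0 h, where it had 3470 and 3237 reads. The enzymes Lss (-0.66), Dhcr7 (-0.66), Msmo1 (-0.54), Fdps (-0.52) and Hmgcs1 (-0.43) fell. Ebp (0.51), Fads2 (0.33) and Scap (0.29) rose. Sterol gene promoters were searched like those of the interferon genes, for a sterol element, TCAC and CCAC with any base between. It was found in 1 of 16 fallen members with a promoter (6.25%), Hmgcs1, and not in Insig1. Other tested members held it in 0 of 7, and tested genes with a promoter in 142 of 10537 (1.35%). The difference between these shares was not tested. On the first day 26 of the 34 sterol genes had been higher at 24 h than at 0 h and 1 lower. Among all genes 26.5% were higher on that day and 24.1% lower. The test of the late step against the first day called 29 of the 34 more negative and 2 more positive in the late step, against 25.6% and 25.7% of all genes. For glycolysis the first day had 16 of 21 higher and 2 lower, and 18 of 21 were called more negative and none more positive in the late step.

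The other lists can be put more briefly. Of 33 genes of the Atf4 stress response 9 were lower and 3 higher, among them the lipoprotein receptor gene Vldlr, with 122 and 191 reads at 96 h, against 388 and 441 at 48 h (log2 change -1.43 with an SE of 0.16, adjusted p = 3.3e-07), and Phgdh (-0.87), the first enzyme of serine synthesis; 1 was higher without library 1 of the 48 h group. In that list 31 of 33 had been lower on the first day, and 26 were called more positive in the late step than on the first day. G1/S regulators had 19 of 35 higher and 3 lower, with Ccnd2 at 2822 and 2575 reads at 96 h, against 1225 and 1407 at 48 h (1.04, SE 0.08, adjusted p = 4.88e-10), and 10 called higher without library 1 of the 48 h group. Immediate early genes had 10 of 18 higher and none lower, led by Egr1 (1.08) and Junb (0.64); without library 1 of the 48 h group or library 2 of the 96 h group 6 were called higher, in the last with 1 lower. Polycomb genes had 8 of 20 higher and 1 lower, with Cbx8 (0.91) in front, but 4 were called higher without library 1 of the 48 h group, 3 without library 2 of that group and 5 without library 2 of the 96 h group, none of them Cbx8; in the last of these fits 3 were lower. Genes of naive pluripotency had 12 of 32 higher, by at most 0.53, and 5 lower, of which 2 were called without either 48 h library. Dppa3, a maternal factor that guards imprints, was one of the 5, with 138 and 180 reads at 96 h, against 479 and 413 at 48 h (-1.49, SE 0.14, adjusted p = 1.61e-08). Formative genes split into 7 of 16 higher, such as Foxd3 (0.50), and 5 lower, such as Pou3f1 (-1.14) and Sox4, with 1727 and 1752 reads at 96 h, against 3471 and 3501 at 48 h. For p53 targets 11 of 24 were higher and 4 lower, with changes between -0.40 and 0.67 and Gadd45a first.

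Markers of other cell types moved in both directions. Neural genes had 9 of 18 lower and 4 higher (median -0.23): besides Gap43, the acetylcholine transporter Slc18a3, which lies within Chat, had 11.7 and 6.04 reads at 96 h, against 65.5 and 58.8 at 48 h (log2 change -2.74 with an SE of 0.31, adjusted p = 3.12e-07), while the neurofilament gene Nefm, which overlaps Nefl in the annotation, had 496 and 457, against 218 and 218 (1.12, SE 0.15, adjusted p = 2.83e-06). Summed over its 25 genes, the list held 50341 and 47192 reads at 96 h and 50637 and 51005 at 48 h, and Pax3 and Neurog2 had 0 reads. The streak and mesoderm list was 3 of 14 higher and none lower, those being Wnt3a, Evx1 and the receptor Kdr (0.94), with sums of 1744 and 1761 reads at 96 h, against 1052 and 1170 at 48 h; the streak gene T had 0 reads in both 96 h libraries, and without library 2 of that group 1 gene was called lower. The median change of the streak and mesoderm list was -0.05, its share higher lay near the 20.1% of all tested genes, and its sums hold the rises of Wnt3a, Evx1 and Kdr. Primitive endoderm genes were 3 of 17 higher and 4 lower, with sums of 97565 and 94472, against 90132 and 90461, and Afp had 0 reads. Trophoblast genes were 5 of 15 higher, with Krt19 (0.98) and Krt8 (0.95) in front, and 3 lower; Tpbpa and Prl3d1 had 0 reads. Of fibroblast markers Col1a2, Col3a1, Postn, Lum and Fap had 0 reads in all 4 libraries, and of 7 tested 1 was higher, the calcium-binding gene S100a6 (log2 change 1.402), and 2 lower, Thy1 (-0.57) and the receptor gene Pdgfrb (-0.64), with a median of -0.57; Pdgfrb lost its call without library 1 of the 48 h group and without library 2 of the 96 h group. Meiosis and germline genes were 6 of 24 lower, such as Sycp3 (-1.52) and Stra8 (-1.16), and 3 higher. In bulk RNA fewer cells of a type and less RNA per cell cannot be told apart.

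Intron reads, which come mainly from unspliced RNA, moved with the exon reads. Among 12225 genes tested in introns 2087 were called (17.1%), 1121 higher (9.17%) and 966 lower (7.9%). Of the genes higher in exons 28.3% were also higher in introns and 0.237% lower, and of those lower in exons 33.4% were also lower and 0.862% higher. For the genes at least 2-fold higher these shares were 60% higher and 0 lower of 140 tested, and for those at least 2-fold lower 54.9% lower and 0.325% higher of 308. Gap43 introns fell by 3.73 on the log2 scale (adjusted p = 2.6e-13) and Plagl1 introns rose (1.14, adjusted p = 1.8e-12). Lin28a introns had 24.1 and 28.1 reads at 96 h and 48.9 and 31.4 at 48 h, a change that was not called (-0.57, adjusted p = 0.19). Which exon and which intron values came from the same library is not known from the deposited columns. They were matched within a group by the likeness of their library differences across genes, a weak guide, with a correlation of 0.06 at 48 h and, before the pairs were turned round, -0.16 at 96 h. With that matching, testing exon minus intron changes in 11939 genes called none with limma (0%), although 1314 stood below 0.05 before adjustment. Matched the other way, it also called 0. The test could call little: even a change of -1.54 with an SE of 0.13, that of Dis3l2 below, was not called. The 0 calls therefore do not show that exon and intron changes were alike. In a pair of alternatives, with a mean of at least 50 reads and without the trend, 1 gene was called. It was Dis3l2 (chromosome 1, 86703808 to 87050095), named after its values were seen, an exonuclease gene known for degrading uridylated let-7 precursors. Dis3l2 had 4356 and 4780 intron reads at 96 h, against 1949 and 1698 at 48 h (1.33, SE 0.07, adjusted p = 2.90e-15), at the other times its introns had 1769 to 2738. Its exons had 798 and 868 reads at 96 h and 1020 and 907 at 48 h and were not called (-0.21, adjusted p = 0.0631), though they were with voom weights and without library 2 of the 96 h group, and the exon minus intron change of Dis3l2 was -1.54 (SE 0.13, adjusted p = 0.136).

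Set beside the first day, the late step often ran the other way. The comparison of 24 h with 0 h shares no library with that of 96 h with 48 h, and it called 6919 of 13652 genes (50.7%). Of the 2747 genes higher in the late step, 37.9% had been lower on the first day and 24.8% higher, and of the 2226 lower in the late step, 44.7% had been higher and 12.1% lower, against 26.5% higher and 24.1% lower among all genes. The difference between the late step and the first day was itself called in 7003 genes (51.3%). Counting only changes of at least 1.5-fold in both, 126 genes rose late after a first-day fall and 281 fell late after a first-day rise, whereas 80 rose and 32 fell in both. Evx1 is one of the 126: it had 17 and 8.74 reads at 24 h, against 81.2 and 101.8 at 0 h. Wnt5a, a ligand of noncanonical Wnt signalling, is one of the 281, with 81.6 and 86.6 reads at 96 h, against 328 and 316 at 48 h (log2 change -1.92 with an SE of 0.19, adjusted p = 3.78e-08), after 209 and 211 at 24 h, against 59.9 and 72.2 at 0 h. The guidance ligand Slit2 had 176 and 171 reads at 96 h, against 589 and 539 at 48 h (-1.69, SE 0.15, adjusted p = 5.07e-09), after 316 and 354 at 24 h, against 151 and 186 at 0 h.

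**Figure D5:**
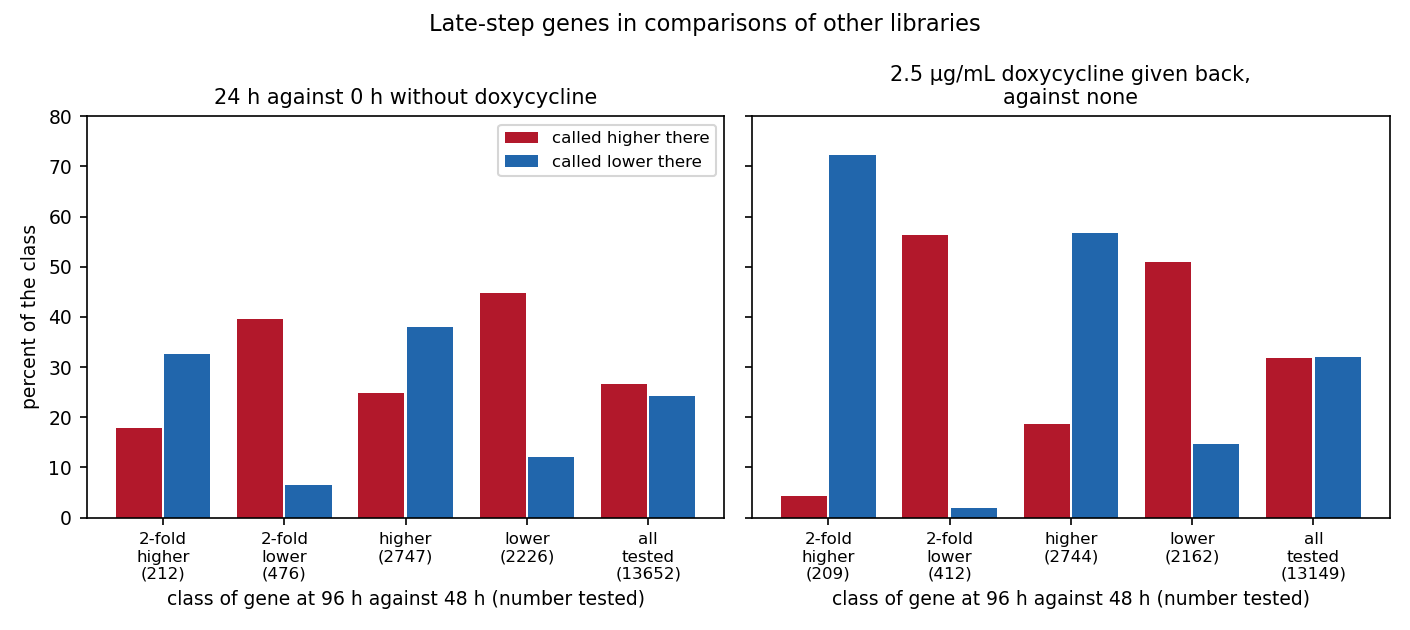
Percent of genes called higher (red) and lower (blue) in 2 comparisons of other libraries, 24 h against 0 h without doxycycline (left) and 2.5 µg/mL given back against none (right), for classes of genes by their change at 96 h against 48 h. Of genes at least 2-fold higher in the late step 72.2% were lower with doxycycline given back, and of genes at least 2-fold lower 56.3% were higher.

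Giving doxycycline back went with the opposite change in much of the late step. The comparison of 2.5 µg/mL with none uses libraries of its own, and by the labels its dosed cells were 48 h longer in culture. It called 8400 of 13176 genes (63.8%), 31.8% higher and 32% lower. Of the late-step rises 56.8% were lower with doxycycline and 18.7% higher, and of the late-step falls 51.0% were higher and 14.7% lower. Among genes at least 2-fold higher in the late step, 72.2% were lower with doxycycline and 4.31% higher (median -1.39, 209 tested), and among those at least 2-fold lower, 56.3% were higher and 1.94% lower (median 1.03, 412 tested). Wnt3a had 20.9 and 25.3 reads at 2.5 µg/mL, against 333 and 315 with none (log2 change -3.76, adjusted p = 9.4e-13). Gap43 had 727 and 777 reads at 2.5 µg/mL, against 46.3 and 56.0 with none (3.86, adjusted p = 9.4e-18). In both genes the dosed libraries lay beyond every undosed one, on the side of the earlier times of the time course. With changes of at least 1.5-fold in both, 358 late rises and 404 late falls were opposite to the change with doxycycline, and 15 rises and 32 falls had the same sign. Among those of the same sign was Ddah1, which breaks down methylated arginine. Ddah1 had 1471 and 1329 reads at 96 h, against 651 and 864 at 48 h, and 3792 and 3695 at 2.5 µg/mL, against 1753 and 1851 with none. Wnt5a, Slit2 and Car12 were also lower both at 96 h and at 2.5 µg/mL, and these 3 genes had been higher on the first day.

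The lists can be set beside the change with doxycycline in the same way, each count to be read against 31.8% higher and 32% lower among all genes tested there. Of 14 two-cell genes 6 were higher with doxycycline and none lower (median 0.45), the same sign as in the late step. Zfp352 was at a change of 1.34 with doxycycline (adjusted p = 0.001 with limma). The late-step call of Zfp352 was lost without library 1 of the 48 h group and without library 2 of the 96 h group. Of 21 glycolytic genes 14 were higher and 4 lower (median 0.70), the sign opposite to the late step. ES-cell microRNA targets were lower in 18 of 19 and higher in none (median -1.34), interferon genes lower in 28 of 37 and higher in 5 (median -1.02), and imprinted genes higher in 15 of 25 and lower in 5. Sterol genes had 17 of 34 lower and 9 higher (median -0.19), the sign of the late step.

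Argonaute-free clones set against E7 were compared with less precision. In all 198 of 13161 genes were called (1.5%), 0.714% higher and 0.79% lower, and the median SE was 0.336, against 0.0797 in the time course. That fit also held the libraries of wild-type AB2.2 cells and of the line B9 (n = 2 each), whose spread enters these SEs. Of the genes at least 2-fold higher in the late step 88.7% had a positive change in the clones (median 1.33, 204 tested) and 14 were called, all higher. Of those at least 2-fold lower 80.9% had a negative change (median -0.93, 439 tested) and 36 were called, all lower. Among all tested genes 51.4% were positive. Gap43 had 3.86 and 5.34 reads in the clones, against 1022, 733 and 203 in E7 (log2 change -6.59 with an SE of 0.61, adjusted p = 0.00097), and Lats2 had 2680 and 3032, against 514, 554 and 394 (2.56, adjusted p = 0.0027). The clone libraries were unlike each other in Plagl1, with 19076 and 5736 reads, against 4889, 5121 and 6407 in E7, and it was not called (0.94, adjusted p = 0.22).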

How the data were processed

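Per the submitters' processing notes the authors used TopHat2 2.0.12 and DESeq on the build mm10; which program counted reads, on which annotation and whether by strand is not given in the sources used here. The deposited signal in each column is the mean, over a group's libraries, of reads divided by size factors, per the file headers. Each mean is a sum of whole reads times 1 step per library, so reads of each library were recovered: all 18412 values of every 2-library column came out whole (largest relative misfit 5.59e-15), and 18330 of E7's 3-library column, the 82 others being left out there. Columns name no replicate, so which library is which sample is unknown. Log2(normalised reads + 1) was tested with limma 3.58.1 (R 4.3.3, trended prior, 1 fit over the 8 time-course libraries). Benjamini-Hochberg adjustment was over all genes with a mean of at least 10, a filter that 13652 of 18412 genes passed in exons. The rescue and genetic tables were fitted apart, each over all its libraries. Those at 0.1 µg/mL, those of wild-type AB2.2 cells and those of the line B9 thus entered the estimates of spread. In simulated 96 h and 48 h exons 82.1% of genes changed 1.5-fold and 100% of those changed 2-fold were called, with 2.09% false calls. Every simulated gene had the same SD beyond counting noise, 0.058 on the log2 scale, taken from abundant genes. Only 67 genes were changed 1.5-fold, 66 2-fold and 66 4-fold. Real libraries of a group differed by 0.663 (96 h) and 0.562 (48 h) at the 95th percentile of genes, so these shares need not hold for the real calls. Coordinates and 3′ UTRs are from GENCODE vM21.

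The genes and lists were chosen with earlier results of these data known. Named genes are the Argonautes, Blm, Lefty1, Lefty2, Cdkn1a, Lin28a, Irf2 and Insig1, the 12 largest changes each way at a mean of at least 50 reads, up to 4 called members each way of each of 45 lists, and up to 6 each way among genes opposite to the first day, or opposite or alike at 2.5 µg/mL, at 1.5-fold or more. Other called members named with a list were chosen after their values were seen. Some genes that these rules name are not reported here. The count models planned on the recovered reads were not run, voom being used in their place; alternatives were pseudocounts of 0.5 and 5, no filter or a mean of at least 50, TMM scaling, no trend, the 4 libraries alone, each library left out and, chosen after seeing the data, voom weights and the other matching of exon with intron libraries.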

Additional observations from a re-analysis of the deposited data

Results flagged for a closer look

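The late change minus the first-day change, 96 h against 48 h minus 24 h against 0 h on the log2 scale, is given here for 11 genes that were named for opposite changes of at least 1.5-fold in the 2 steps. It was called in each of them, as it was in 7003 genes in all. These 11 genes were picked for that contrast, and limma's difference is a description of them.

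Among genes that rose late, the difference was 5.20 in Evx1 and 3.35 in Cited4, a coactivator with 458 and 338 reads at 96 h, against 96.3 and 99.9 at 48 h, after 117 and 99 at 24 h, against 263 and 291 at 0 h. The predicted gene Gm364 stood at 3.82, with 77.7 and 74.5 reads at 96 h, against 21.1 and 17.7 at 48 h. Adam25, a member of the ADAM family, stood at 3.28, with 69.9 and 81.6 reads at 96 h, against 17.3 and 24.2 at 48 h. In both, the 96 h values exceeded every earlier library. The largest difference, 5.55, was that of 4930453H23Rik, with 13.6 and 24.2 reads at 96 h, against 6.02 and 0.806 at 48 h; its late call was lost with no filter, without the trend, with a pseudocount of 0.5 and without single libraries.

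Among genes that fell late, the difference was -4.40 in Gap43, -3.83 in Plppr3 and -2.99 in Ppp1r16b. Acot3, an acyl-CoA thioesterase, stood at -4.41, with 9.71 and 16.1 reads at 96 h, against 101.6 and 110 at 48 h. Mgst1, a microsomal glutathione transferase, stood at -4.14, with 15.5 and 10.1 reads at 96 h, against 73.0 and 92.7 at 48 h. Fn3k, which repairs glycated proteins, stood at -5.15, with 3.89 and 2.01 reads at 96 h, against 33.1 and 25.8 at 48 h, a level at which few reads carry the value. In all 3 the 96 h libraries lay below every other library of the time course.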

How the results depend on the processing

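Across the alternatives 0 of the 311 named genes tested had a called late-step exon change that was reversed in sign. These fits share most or all of their libraries, so they could hardly reverse a called change. With a mean of at least 50 reads, which leaves fewer genes to test, 440 exon calls of at least 2-fold were made, 139 higher and 301 lower; without the trend 670 intron calls were made; the cause was not tested. Exon minus intron calls numbered 1 with a mean of at least 50 and 1 without the trend. Leaving out each library in turn gave 3282 to 4559 exon calls (1820 to 2438 higher, 1462 to 2121 lower) and 1023 to 1334 intron calls; fewer samples enter these fits. Over the other alternatives exon calls numbered 3448 (no trend) to 5421 (voom). TMM scaling kept 99.8% of the calls, the fit without the trend 65.7% and that without library 1 of the 48 h group 65.0%. Of 304 named genes called, 210 were called under every alternative and 94 were lost under at least 1. edgeR and DESeq2, planned on the recovered reads, were not run; voom on those reads was run in their place. No paired analysis was possible because the deposited columns carry no replicate number. With 2 libraries a group, changes under 1.5-fold are detected in part, and the time in culture, which differs between the groups, limits what any of these comparisons can separate.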

Other observations

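Lists not yet described held further called genes. Of 34 matrix and adhesion genes 16 were higher and 4 lower at 96 h, against 20.1% and 16.3% of all tested genes. Besides Thbs1, N-cadherin (Cdh2) rose by a log2 change of 0.59 and the basement membrane collagen Col4a2 by 0.55, while the laminin chains Lamb1 and Lama1 changed by -0.43 and -0.42 and the claudin Cldn6 by -0.50. Of 20 metallothionein and antioxidant genes 10 were higher and 3 lower. Gpx2, a glutathione peroxidase, had 654 and 593 reads at 96 h, against 281 and 283 at 48 h (log2 change 1.14 with an SE of 0.13, adjusted p = 3.23e-07). Gpx1 (0.67) and Mt1 (0.49) rose as well, and Gclc, a subunit of the first enzyme of glutathione synthesis, fell (-0.32). Of 20 Yap targets and partners 7 were higher, led by Lats2, Cyr61 (0.83) and Ctgf (0.54), and 1, Tead2 (-0.37), was lower, or 2 without library 2 of the 96 h group.

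Feedback genes of Wnt signalling split: Notum, a secreted Wnt inhibitor, had 6396 and 6246 reads at 96 h, against 3312 and 3453 at 48 h (log2 change 0.90 with an SE of 0.06, adjusted p = 2.41e-10), whereas Nkd2 had 35.0 and 26.2, against 132 and 101.6 (-1.90, SE 0.24, adjusted p = 1.14e-06). In the list as a whole 3 of 20 were higher and 5 lower, or 3 lower without library 1 of the 48 h group. Feedback genes of Fgf signalling rose in Dusp6 (0.61) and Etv1 (0.52), while the ligand Fgf17 (-0.69) and the receptor Fgfr2 (-0.51) fell, among 8 of 19 higher and 6 lower, or 2 lower without library 2 of the 48 h group. The glutamate transporter Slc1a3 had 307 and 341 reads at 96 h, against 597 and 716 at 48 h (-1.01, SE 0.10, adjusted p = 7.56e-08). The smooth-muscle calponin Cnn1 (-1.37), Tpm2 (-0.74) and Cnn2 (-0.58) led 6 of 20 serum response factor targets that were lower, with 2 higher.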
